A study of Homo sapiens with 6 samples.

Results

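The genes described here are 6 inhibitors of cyclin-dependent kinases (CDKs) and 3 target genes of the transcription factor p53, taken by symbol from a table of 60675 genes: CDKN1A, CDKN1B, CDKN1C, CDKN2A, CDKN2B, CDKN2C, MDM2, AEN and SESN1. All 9 were found in the table. The RNA came from SUM159, an established line of triple-negative breast cancer cells. There were 3 libraries labelled control (DAPK3 wild type) and 3 labelled DAPK3 knockout (KO), all from 1 knockout line, number 3. DAPK3 belongs to the death-associated protein kinases. All cells grew in the same medium, Ham's F-12, to which serum (5%), hydrocortisone (1 μg/mL), insulin (5 μg/mL) and HEPES (10 mM) were added. The labels name no separate cultures behind libraries of the same group. The p-values below therefore reflect only how much these libraries varied, and that variation may be technical. In bulk RNA, fewer cells of a type and less RNA per cell cannot be told apart.

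CDK inhibitors bind cyclin and CDK complexes and slow entry into S phase. The Cip/Kip inhibitors p21, p27 and p57 (genes CDKN1A, CDKN1B and CDKN1C) act on several cyclin and CDK complexes, and the INK4 inhibitors (CDKN2A, CDKN2B and CDKN2C) bind CDK4 and CDK6. CDKN1A is also a classical p53 target. MDM2 encodes the ubiquitin ligase that marks p53 for degradation, AEN an apoptosis-enhancing nuclease and SESN1 a sestrin that restrains growth signalling by mTORC1, and each is a known target of p53.

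DNA before the starts of AEN and MDM2 is shown because both genes are p53 targets and their RNA divided the libraries in different ways. The p53 response element consensus, a pair of adjoining 10-base repeats, was searched by name in the 250 bases before each RefSeq start (GRCh38.p14), with the central C and G of each repeat kept, no spacer and at most 2 mismatches. The consensus reads the same on both strands, and the limit of 2 was chosen after seeing the MDM2 sequence. Such a match lay in 85 of 35116 windows in all (0.242%). Of the 16 windows found for 8 of the 9 genes, 3 held it, namely the window of AEN and a pair of overlapping windows of MDM2 that share 1 match. A p53 element farther from a start, or one without a central C or G, would not be found. The windows without a match, those of CDKN1A and SESN1 included, thus do not show that a gene lacks an element. Both matches have 2 mismatches. The lines below give each match in capitals with 5 bases on either side, at chr15:88621301-88621330 for AEN and at chr12:68808918-68808947 for MDM2, both on the plus strand.
AEN: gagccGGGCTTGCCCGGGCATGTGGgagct
MDM2: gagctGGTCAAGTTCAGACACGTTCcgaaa
In the GENCODE annotation the AEN match begins 10 bases after the first annotated base of the gene, inside an annotated UTR. The MDM2 match begins 747 bases after that gene's first annotated base and 94 bases before an inner start of transcription, the start long known to respond to p53. The 235 bases that end before an annotated exon at that inner start, chr12:68808767-68809001 on the plus strand, are as follows, with the match in capitals.
MDM2 inner start: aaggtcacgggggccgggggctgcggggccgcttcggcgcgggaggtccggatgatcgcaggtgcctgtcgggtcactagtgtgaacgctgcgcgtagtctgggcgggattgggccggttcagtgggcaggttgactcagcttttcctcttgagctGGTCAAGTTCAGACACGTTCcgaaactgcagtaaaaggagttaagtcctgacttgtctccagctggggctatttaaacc
A match describes these letters and does not show that p53 binds there in these cells. Letters in lower case may still hold an element outside the search rule. The table gives 1 value per gene, so transcripts from the outer and inner MDM2 starts cannot be told apart.

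Libraries held between 16312184 and 22970823 expected counts in all. DAPK3 RNA, in CPM (expected counts scaled to a common library size), was 26.2 (R1), 10.5 (R2) and 26.1 (R3) in control, against 13.1 (R1), 27.2 (R2) and 11.2 (R3) in KO. Control R2 and KO R2 thus ran against their labels. Cells with a disrupted gene may still transcribe it, and genotype cannot be read from these levels. The difference between libraries over all genes tested (chi-square per degree of freedom) was 12.9 for control R2 against KO R3. Against control R1 and R3 it was 88.6 and 94.8 for control R2. For KO R2 it was 35.3 and 40.9 against control R1 and R3, and 78 and 69.5 against KO R1 and R3. An exchange of labels was not tested. Beside the labels, values are therefore also described in the 3 libraries with more DAPK3 RNA (control R1, control R3 and KO R2) and the 3 with less (control R2, KO R1 and KO R3), with no test between those sets. VIM, a marker of mesenchymal-like breast cancer lines, stood between 1420 and 3580 CPM, while the luminal markers KRT19, ESR1 and PGR stayed under 1 CPM in every library (4 of the 8 luminal markers did, and the list summed to 340 to 547 CPM). The 9 basal or mesenchymal markers summed to 8810 to 10100 CPM where DAPK3 was high and 3460 to 4260 CPM where it was low. FN1 alone stood at 3830 to 4290 CPM where DAPK3 was high and 421 to 510 CPM where it was low. Of the 9, 4 were separated and lower there, against 22.3% of all genes tested (43.5% separated in either direction). Of the 5 fibroblast markers tested, 3 (COL1A1, COL3A1 and PDGFRB) were separated and lower where DAPK3 was low, against the same 22.3%. The list of 8 summed to 566 to 699 CPM where DAPK3 was high and 81.7 to 110 CPM where it was low. The other tested fibroblast markers overlapped, PDGFRA at 20.4 to 39.2 CPM and DCN at 4.04 to 13.5 CPM, and the untested COL1A2, LUM and FAP were under 1 CPM in every library. Of 8 blood and immune markers, PTPRC stood at 2.92 to 3.28 CPM where DAPK3 was high and at 0 to 0.106 CPM where it was low. CD68 went the other way, at 6.80 to 8.51 CPM where DAPK3 was high and 10.7 to 13.6 CPM where it was low. MS4A1 had 0 counts in all 6 libraries, and the blood list summed to 11.3 to 13.5 and 11.8 to 14.7 CPM in those sets. The part of these markers in the results below was not tested.

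**Figure D1:**
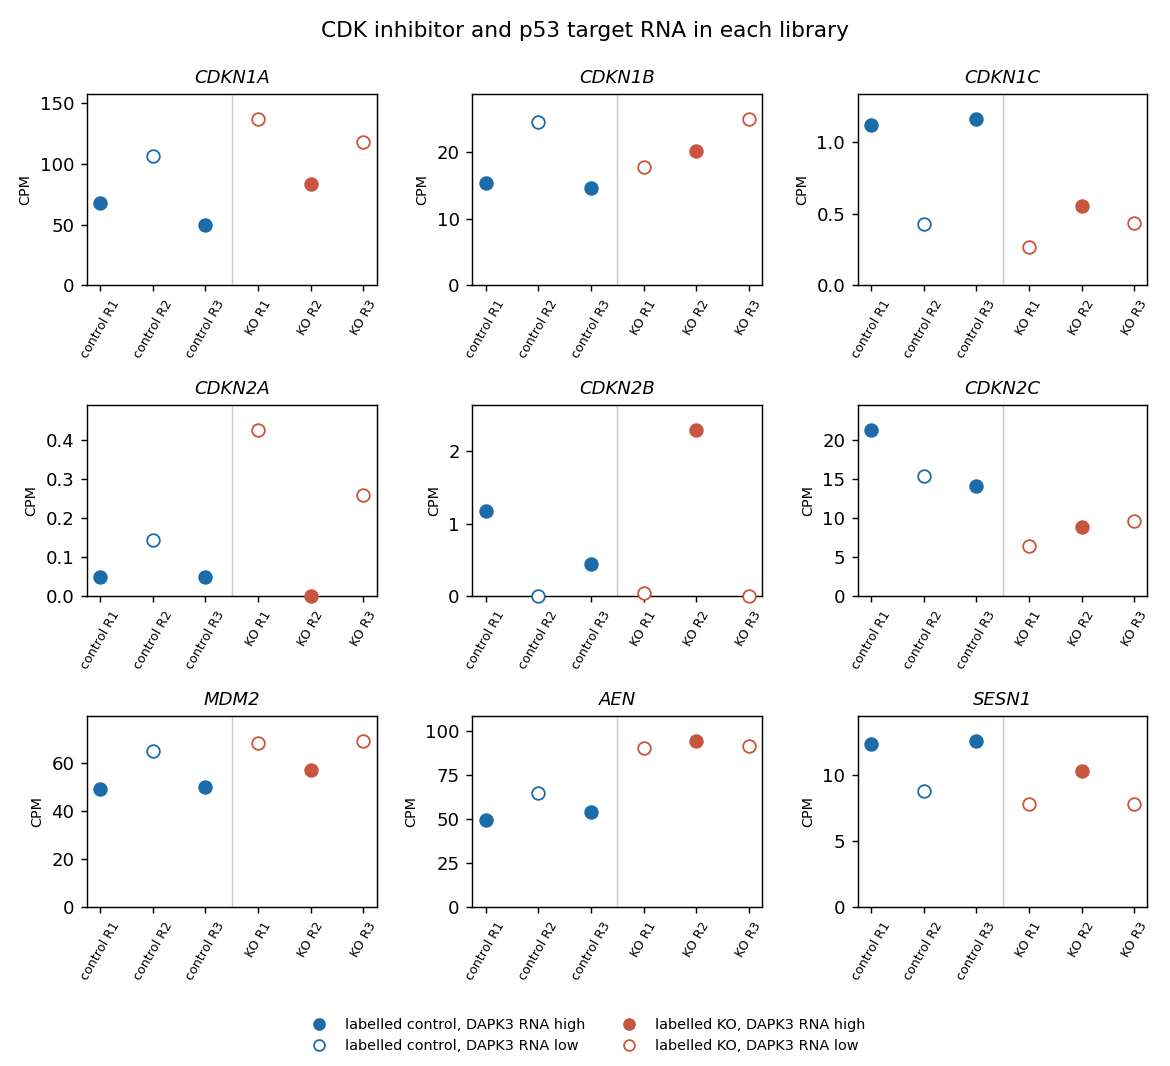
CPM of the 9 genes (vertical axes, starting at 0) in each of the 6 libraries (horizontal axes), with control in blue, KO in red, filled points for DAPK3 RNA of 26.1 to 27.2 CPM and open points for 10.5 to 13.1 CPM. AEN and CDKN2C separate the colours, while CDKN1A, MDM2, SESN1, CDKN1C and, at few counts, CDKN2A and CDKN2B separate filled from open points.

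Levels of different genes were compared per length, with each expected count divided by the gene's exonic bases and scaled to the same total in each library as CPM is. On that scale CDKN1A had the highest level of the 9 genes in every library, with a range of 55.7 to 157. By median, AEN followed at 30.3 to 57.6, CDKN1B at 17.6 to 32.3, MDM2 at 12.8 to 18.9, CDKN2C at 6.85 to 23.3 and SESN1 at 5.39 to 8.82. Each of these ranges overlapped that of the next gene in the order. CDKN1C lay below them all at 0.376 to 1.66 and did not overlap SESN1, and CDKN2B (0 to 2.08) overlapped it. CDKN2A (0 to 0.344) was below every CDKN1C value. Exon length was the union over all annotated transcripts, 13284 bases for MDM2 against 3050 for CDKN1A, so the level of a gene that mostly makes a short transcript is understated.

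The comparison the study set up was KO against control. In edgeR's quasi-likelihood test of the 3 libraries per label, 0 of 14613 genes were called at an adjusted p under 0.05 (0% of those tested), and 1119 had an unadjusted p under 0.05 (7.66%). limma-voom also called 0, and DESeq2 called 114 of the 11177 genes to which it gave an adjusted p (1.02%), 45 higher (0.403%) and 69 lower (0.617%). Of the 9 genes, 7 passed the filter on low counts and none was called by edgeR. By unadjusted p, AEN was higher and CDKN2C lower, against 3.49% of all genes higher and 4.17% lower at that threshold. These were also the 2 genes of the 7 whose libraries did not overlap by label, against 13.8% of all genes tested (6.96% with KO higher, 6.86% with KO lower). By DAPK3 RNA level, 4 of the 7 did not overlap, 2 higher (CDKN1A and MDM2) and 2 lower (SESN1 and CDKN1C) where DAPK3 was low, against 21.3% and 22.3% of all genes, or 43.5% in either direction. CDKN1B overlapped on both divisions. A share of 4 in 7 is near that background.

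A second comparison left out control R2 and KO R2, the libraries whose DAPK3 RNA went against the label, and set KO R1 and R3 against control R1 and R3. No library changed its group. The 4 libraries kept were those in which label and DAPK3 RNA matched, so that their p-values give no independent support to the labels. edgeR called 4056 of 14846 genes (27.3%), 1805 higher (12.2%) and 2251 lower (15.2%). Of the 7 genes tested, CDKN1A, AEN and MDM2 were called higher and CDKN2C, SESN1 and CDKN1C lower, and CDKN1B was not called. The median log2 fold change over the 7 was 0.46, and it was −0.02 over all genes tested.

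**Figure D2:**
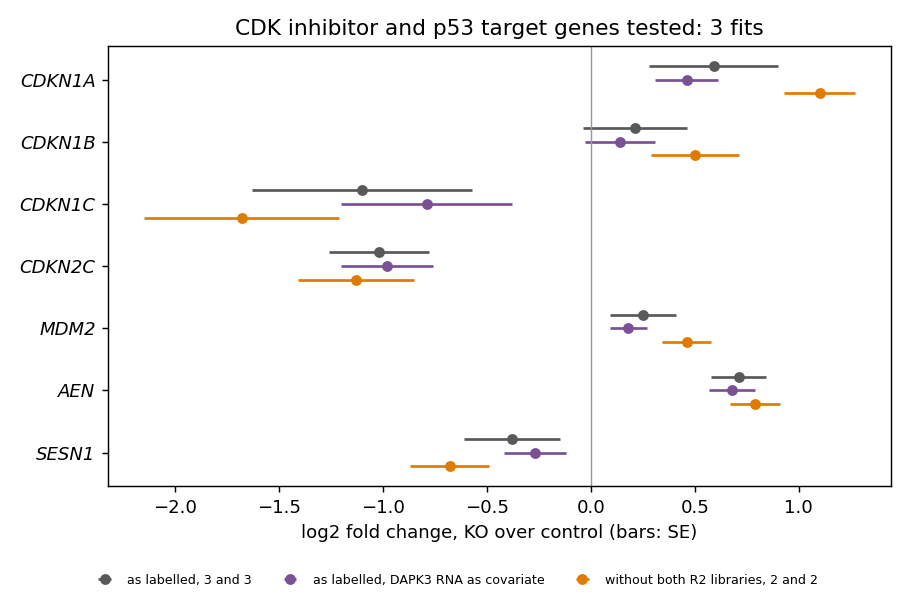
log2 fold change of KO over control (horizontal axis, bars are SE) for the 7 genes tested, as labelled (grey), as labelled with DAPK3 RNA as a covariate (purple) and without both R2 libraries (orange). AEN and CDKN2C keep nearly the same value in the 3 fits, from 0.68 to 0.79 and from −1.13 to −0.98, while CDKN1A moves from 0.59 as labelled to 1.10 without both R2 libraries.

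CDKN1A (ENSG00000124762, GRCh38 chromosome 6, 36676460 to 36687339, plus strand) encodes p21. It stood in control at 68.0 (R1), 107 (R2) and 50 CPM (R3), against 137 (R1), 84.0 (R2) and 118 CPM (R3) in KO. The labelled groups overlapped because control R2 exceeded KO R2. By DAPK3 level the libraries separated, at 50 to 84.0 CPM where DAPK3 was high and 107 to 137 CPM where it was low. Within each of those sets, the lowest value or values belonged to control libraries. The labelled means were 74.9 ± 29 CPM in control and 113 ± 26.7 CPM in KO (SD, n = 3), with a log2 fold change of 0.59 ± 0.31 (SE, adjusted p = 0.67 by edgeR). Without both R2 libraries CDKN1A rose in KO, with a log2 fold change of 1.10 ± 0.17 (SE, adjusted p = 0.0043 by edgeR). With the log2 CPM of DAPK3 as a covariate beside the label the value was 0.46 ± 0.15 (SE, adjusted p = 0.19 by edgeR).

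CDKN1B (ENSG00000111276, chromosome 12, 12715058 to 12722371, plus strand) encodes p27, an inhibitor controlled largely through degradation of its protein. Its RNA stood in control at 15.4 (R1), 24.6 (R2) and 14.6 CPM (R3), against 17.8 (R1), 20.2 (R2) and 25.0 CPM (R3) in KO. Control R2 and KO R3 were nearly equal at the top, and control R1 and R3 were the lowest. The log2 fold change was 0.21 ± 0.25 as labelled (SE, adjusted p = 0.84 by edgeR) and 0.50 ± 0.21 without both R2 libraries (SE, adjusted p = 0.11 by edgeR). Leaving out KO R1 as well gave 0.74 (edgeR adjusted p = 0.019) and leaving out KO R3 gave 0.23 (edgeR adjusted p = 0.57), with the lone KO library assumed to vary like the control pair.

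CDKN1C (ENSG00000129757, chromosome 11, 2883213 to 2885773, minus strand) encodes p57 and lies in an imprinted cluster. It was close to the limit of the filter, with expected counts of 23 (R1), 9 (R2) and 23 (R3) in control, against 5 (R1), 9 (R2) and 10 (R3) in KO. As CPM these were 1.12, 0.43 and 1.16 for control, against 0.266, 0.557 and 0.434 for KO. Control R2 fell among the KO libraries, and control R1 and R3 stood apart at the top, followed by KO R2. The log2 fold change was −1.10 ± 0.53 as labelled (SE, adjusted p = 0.67 by edgeR) and −1.68 ± 0.47 without both R2 libraries (SE, adjusted p = 0.037 by edgeR). That call was lost with no filter on low counts (edgeR adjusted p = 0.059) and with DESeq2 (adjusted p = 0.19). Leaving out any 1 of the 4 libraries also ended it, in fits with 1 library in a group and log2 fold changes of −2.10 to −1.38. Among its neighbours in the cluster, KCNQ1OT1, an antisense transcript of the cluster, stood at 21.0 to 28.5 CPM over the 6 libraries. NAP1L4, a histone chaperone gene, stood at 145 to 178 CPM and KCNQ1 at 0 to 0.0434 CPM. PHLDA2 went opposite to CDKN1C, at 9.09 to 14.2 CPM where DAPK3 was high and 15.7 to 17.1 CPM where it was low. Its log2 fold change without both R2 libraries was 0.61 ± 0.21 (SE, unadjusted p = 0.021, adjusted p = 0.067 by edgeR). Of the 5 neighbours listed, 4 were tested and 0 called by edgeR in either comparison. The shares called of all genes were 0% as labelled and 27.3% without both R2 libraries. At an unadjusted p under 0.05 there were 0 neighbours as labelled and 1, PHLDA2, without both R2 libraries. Of all genes, 7.66% met that threshold as labelled. Without both R2 libraries, 2776 genes met it as higher and 3163 as lower, of 14846 tested.

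The INK4 genes CDKN2A and CDKN2B, side by side on chromosome 9, were barely detected and were not tested. CDKN2A (ENSG00000147889, 21967753 to 21995301, minus strand), which encodes p16 and, in another reading frame, ARF, had expected counts of 1 (R1), 3 (R2) and 1 (R3) in control, against 8 (R1), 0 (R2) and 6 (R3) in KO. These were 0 to 0.0503 CPM where DAPK3 was high and 0.143 to 0.425 CPM where it was low. CDKN2B (ENSG00000147883, 22002903 to 22009363, minus strand), which encodes p15, had 24 (R1), 0 (R2) and 9 (R3) in control, against 1 (R1), 37 (R2) and 0 (R3) in KO. All CDKN2B counts but 1 thus came from control R1, control R3 and KO R2, at 1.17, 0.453 and 2.29 CPM. A count of 0 allows up to 3 counts, or 0.143 CPM, in control R2 and 0.13 CPM in KO R3, for counting error only.

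Genes on either side of this pair were also near 0. MTAP (21802543 to 21937651), a methionine salvage enzyme gene, stood at 0.0531 to 0.244 CPM and rested on at most 5 counts in any library. DMRTA1 (22446841 to 22455740) reached 0.26 CPM and the antisense transcript CDKN2B-AS1 (21994778 to 22121097), which overlaps both inhibitors, 0.0531 CPM. KLHL9, farther out at 21329671 to 21335380, stood at 7.42 to 9.24 CPM. Without a stated strand setting, reads of CDKN2B-AS1 and of the genes it overlaps cannot be told apart.

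CDKN2C (ENSG00000123080, chromosome 1, 50960745 to 50974633, plus strand) encodes p18, and had the most RNA per length of the 3 INK4 genes. It stood in control at 21.2 (R1), 15.4 (R2) and 14.1 CPM (R3), against 6.48 (R1), 8.84 (R2) and 9.68 CPM (R3) in KO. Every control library exceeded every KO library, and the DAPK3 level did not separate them. The labelled means were 16.9 ± 3.76 CPM and 8.34 ± 1.66 CPM (SD, n = 3), with a log2 fold change of −1.02 ± 0.24 (SE, unadjusted p = 0.0047, adjusted p = 0.63 by edgeR). DESeq2 called it lower in the same 6 libraries (adjusted p = 0.037). Without both R2 libraries it fell by 1.13 on the log2 scale (SE 0.28, edgeR adjusted p = 0.024), and the call was lost when control R1, the highest library, was also left out (−0.80, edgeR adjusted p = 0.095). CDKN2D, the remaining INK4 gene, was low at 2.26 to 4.63 CPM, separated by DAPK3 level and not by label, and was not called in either comparison (edgeR adjusted p = 0.075 without both R2 libraries).

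**Figure D3:**
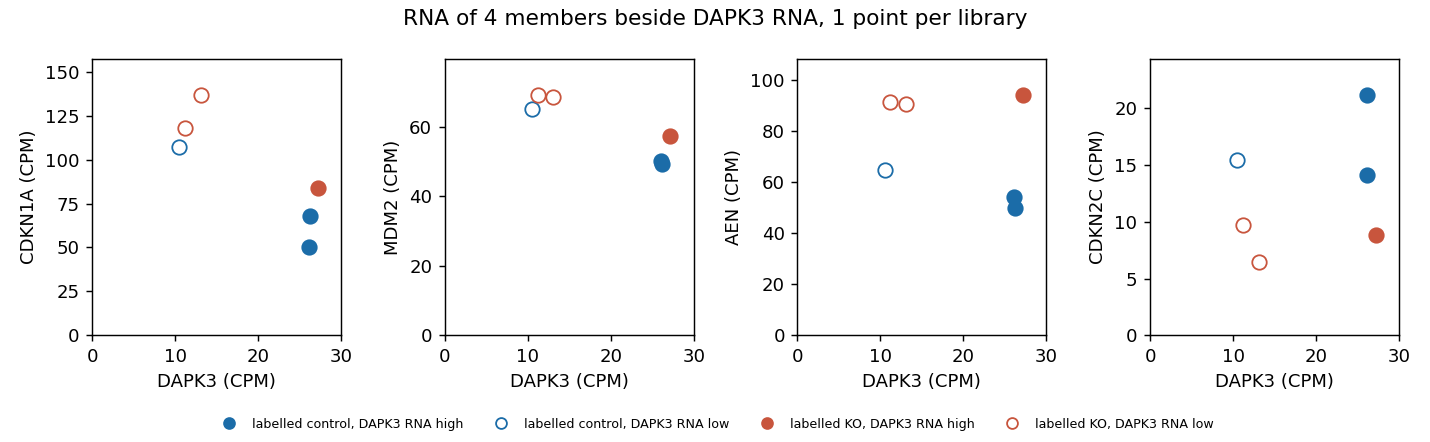
CPM of CDKN1A, MDM2, AEN and CDKN2C (vertical axes) against CPM of DAPK3 (horizontal axes), 1 point per library, with control in blue and KO in red. CDKN1A and MDM2 are higher in the 3 libraries on the left, with DAPK3 of 10.5 to 13.1 CPM, whatever their colour, while AEN and CDKN2C divide by colour on both sides.

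AEN (ENSG00000181026, chromosome 15, 88621296 to 88632282, plus strand) had the smallest unadjusted p of the 7 genes as labelled. Its RNA stood in control at 49.8 (R1), 64.8 (R2) and 54.1 CPM (R3), against 90.6 (R1), 94.2 (R2) and 91.2 CPM (R3) in KO. The KO libraries lay close together and above every control library, and KO R2, with the most DAPK3 RNA, was the highest. The labelled means were 56.3 ± 7.71 CPM and 92.0 ± 1.92 CPM (SD, n = 3). The log2 fold change was 0.71 ± 0.13 (SE, unadjusted p = 0.0011, adjusted p = 0.63 by edgeR). DESeq2 called AEN higher in the same libraries (adjusted p = 0.0016). Without both R2 libraries it rose by 0.79 ± 0.12 on the log2 scale (SE, adjusted p = 0.0044 by edgeR), and with DAPK3 RNA as a covariate the value was 0.68 ± 0.11 (SE, adjusted p = 0.11 by edgeR).

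MDM2 (ENSG00000135679, chromosome 12, 68808176 to 68850686, plus strand) was separated by DAPK3 RNA and not by label. It stood in control at 49.2 (R1), 65.1 (R2) and 50 CPM (R3), against 68.5 (R1), 57.2 (R2) and 69.2 CPM (R3) in KO. The libraries with high DAPK3 held 49.2 to 57.2 CPM and those with low DAPK3 65.1 to 69.2 CPM. The log2 fold change was 0.25 ± 0.16 as labelled (SE, adjusted p = 0.72 by edgeR). Without both R2 libraries MDM2 rose by 0.46 ± 0.12 on the log2 scale (SE, adjusted p = 0.028 by edgeR). This call was lost when any 1 of the 4 libraries was left out, which leaves 1 library in a group. The log2 fold change of MDM2 was 0.44 to 0.49 in those fits.

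SESN1 (ENSG00000080546, chromosome 6, 108986437 to 109094819, minus strand) was also separated by DAPK3 RNA, in the opposite direction to MDM2 and CDKN1A. It stood in control at 12.4 (R1), 8.79 (R2) and 12.6 CPM (R3), against 7.87 (R1), 10.3 (R2) and 7.81 CPM (R3) in KO. The high-DAPK3 libraries lay between 10.3 and 12.6 CPM and the low-DAPK3 libraries between 7.81 and 8.79 CPM. The log2 fold change was −0.38 ± 0.23 as labelled (SE, adjusted p = 0.71 by edgeR). Without both R2 libraries SESN1 fell by 0.68 ± 0.19 on the log2 scale (SE, adjusted p = 0.036 by edgeR). DESeq2 (adjusted p = 0.062) and no filter on low counts (edgeR adjusted p = 0.063) ended that call. Leaving out any 1 of the 4 libraries also ended it, in fits with 1 library in a group and log2 fold changes of −0.69 to −0.67.

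The other p53 targets moved both ways. Of 36 further targets tested without both R2 libraries, 11 were called higher and 4 lower, where 12.2% of all genes were higher and 15.2% lower, and their median log2 fold change was 0.11. EDA2R, a receptor of the TNF receptor family, was the most changed, in control at 0.977 (R1), 7.41 (R2) and 1.06 CPM (R3), against 7.76 (R1), 1.17 (R2) and 9.68 CPM (R3) in KO, a log2 fold change of 3.08 ± 0.30 (SE, adjusted p = 0.00083 by edgeR). On the log2 scale SUSD6 rose by 1.28 (SE 0.15) and SESN2, the sestrin gene paralogous to SESN1, by 1.32 (SE 0.38). CYFIP2, a subunit of the WAVE actin regulatory complex, fell by 2.30 (SE 0.20).

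As labelled, none of 35 of these targets tested was called by edgeR, and the median log2 fold change was 0.06. At an unadjusted p under 0.05, 2 were higher and 0 lower, against 3.49% and 4.17% of all genes. By DAPK3 level 18 of the 35 did not overlap, 12 higher and 6 lower where DAPK3 was low, against 43.5% of all genes (21.3% higher and 22.3% lower). By label 5 of the 35 did not overlap, against 13.8% of all genes, a share near that background. The 5 are named after their values were seen. SESN2 stood in control at 93.6 (R1), 135 (R2) and 35.8 CPM (R3), against 153 (R1), 175 (R2) and 173 CPM (R3) in KO. GADD45A, a stress response gene, stood in control at 104 (R1), 117 (R2) and 63.0 CPM (R3), against 166 (R1), 251 (R2) and 188 CPM (R3) in KO, with a labelled log2 fold change of 1.09 ± 0.27 (SE, adjusted p = 0.63 by edgeR). GDF15, a stress-induced cytokine gene, stood in control at 12.8 (R1), 15.5 (R2) and 7.95 CPM (R3), against 24.8 (R1), 31.5 (R2) and 18.0 CPM (R3) in KO. In each of these 3 genes KO R2 was the highest library, as it was for AEN. RRM2B was slightly higher in KO (28.3 to 32.0 CPM in control, 32.0 to 34.4 CPM in KO), separated only beyond the digits shown. CCNG1 was slightly lower in KO (79.0 to 98.8 CPM in control, 65.9 to 78.8 CPM in KO). As labelled, the unadjusted p by edgeR was 0.29 for RRM2B and 0.15 for CCNG1.

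**Figure D4:**
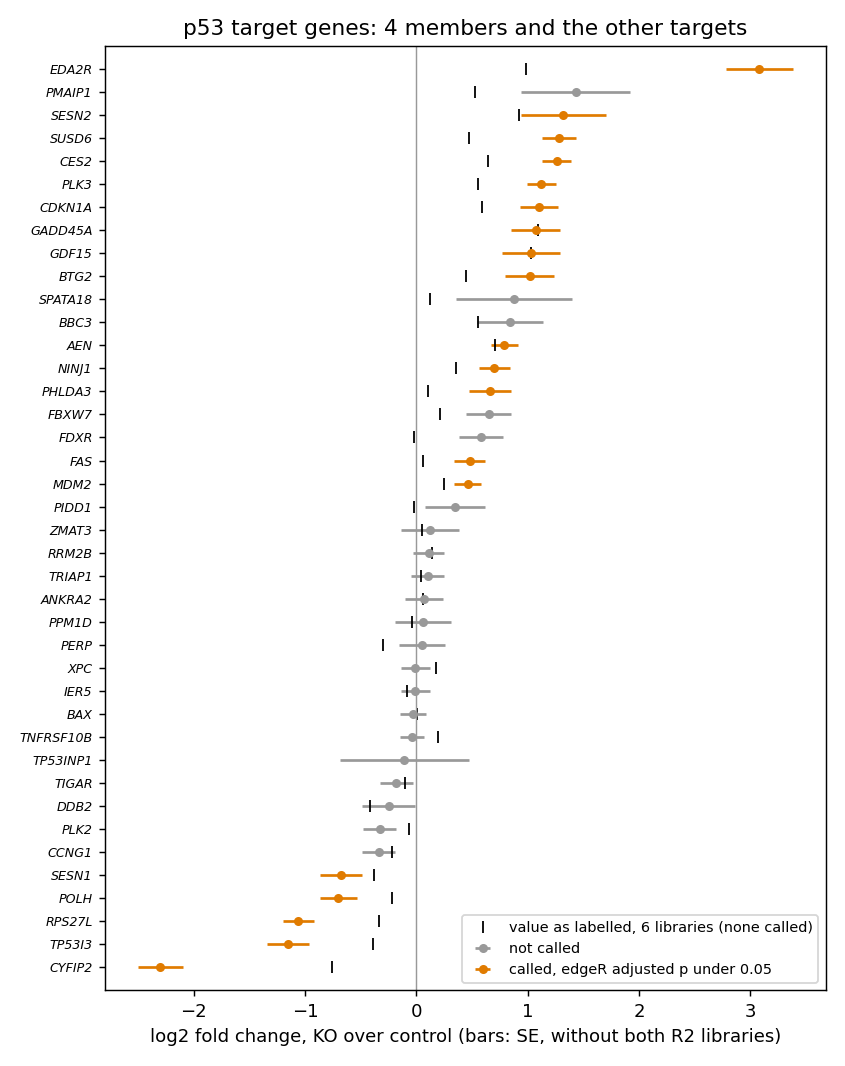
log2 fold change of KO over control without both R2 libraries (horizontal axis, bars are SE) for CDKN1A, MDM2, AEN, SESN1 and 36 other p53 targets (vertical axis), orange where called by edgeR, with black ticks for the value as labelled. EDA2R lies at 0.98 as labelled and 3.08 without both R2 libraries, while GADD45A (1.09 and 1.07) and GDF15 (1.03 and 1.03) barely differ.

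TP63, a p53 family member of basal epithelium, stood in control at 48.4 (R1), 108 (R2) and 35.5 CPM (R3), against 79.2 (R1), 50.3 (R2) and 112 CPM (R3) in KO, and rose by 1.18 ± 0.21 on the log2 scale without both R2 libraries (SE, adjusted p = 0.0084 by edgeR). It belongs to the list of p53 family members and regulators, of which 17 were tested, 2 were called higher and 0 lower, against 12.2% and 15.2% of all genes, with a median log2 fold change of −0.04. The share called higher is near the background, while the share called lower is below it. MDM4, the MDM2 partner, had a log2 fold change of −0.03 (SE 0.19).

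Several partners of the inhibitors had less RNA in the libraries labelled KO. As labelled, edgeR called 0 of the 11 cyclins and CDKs tested (0% of all genes). At an unadjusted p under 0.05, 6 were lower and 0 higher, against 4.17% and 3.49% of all genes. Of 11 cyclins and CDKs tested, 5 were called lower and 2 higher without both R2 libraries, against 15.2% and 12.2% of all genes, with a median log2 fold change of −0.60. CCNE2, a cyclin of CDK2, stood in control at 9.24 (R1), 4.11 (R2) and 15.5 CPM (R3), against 2.55 (R1), 3.15 (R2) and 2.60 CPM (R3) in KO, a log2 fold change of −2.27 ± 0.32 (SE, adjusted p = 0.0032 by edgeR). CDK1, the mitotic kinase, fell by 1.38 on the log2 scale (SE 0.21) and CCNE1 by 1.18 (SE 0.31). By label, 5 of the 11 did not overlap and each was lower in KO, namely CDK1, CDK2, CCNE1, CCNE2 and CCNA2, against 6.86% of all genes. CCND2 and CCND3, cyclins of CDK4 and CDK6, were the 2 called higher, and both were higher in each library with low DAPK3 than in any with high DAPK3. CCND2 stood in control at 7.09 (R1), 37.2 (R2) and 6.29 CPM (R3), against 43.7 (R1), 7.73 (R2) and 40.1 CPM (R3) in KO, a log2 fold change of 2.63 ± 0.16 without both R2 libraries (SE, adjusted p = 0.00014 by edgeR). CDK4, the target of the INK4 inhibitors, had a log2 fold change of 0.21 (SE 0.14) and CDK6 of −0.26 (SE 0.18).

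Of 17 RB and E2F family genes, 4 were called lower and 3 higher without both R2 libraries, against 15.2% and 12.2% of all genes, with log2 fold changes of −2.20 (SE 0.34) for E2F8 and −1.58 (SE 0.20) for E2F2. RBL1, encoding p107, fell by 0.96 on the same scale (SE 0.16), and RB1 stood at −0.32 (SE 0.18). The 3 called higher, named after their values were seen, were TFDP2 at 0.72 (SE 0.13), E2F3 at 0.59 (SE 0.13) and E2F4 at 0.59 (SE 0.11). Among 13 other CDK inhibitor and turnover genes, 5 were called lower and 2 higher, against the same 15.2% and 12.2%. SKP2, which recognizes p27 for degradation, was lower in every KO library, in control at 94.6 (R1), 84.7 (R2) and 74.9 CPM (R3), against 48.1 (R1), 48.7 (R2) and 59.4 CPM (R3) in KO, and fell by 0.67 ± 0.17 on the log2 scale without both R2 libraries (SE, adjusted p = 0.025 by edgeR). The 2 called higher were CUL4A, a cullin gene, by 0.51 (SE 0.11), and CKS1B, whose product works with SKP2 on p27, by 0.40 (SE 0.12, edgeR adjusted p = 0.045). SKP2, CUL4A and CKS1B are named after their values were seen.

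The genes most like each of the 7 were found by the root mean square difference between centred log2 CPM profiles over the 6 libraries, among genes whose log2 CPM averaged 1 or more. This likeness is a description, and a gene picked by it shares the member's pattern because of that choice. Nearest to AEN was GAS5, a small nucleolar RNA host gene (0.044), in control at 381 (R1), 510 (R2) and 453 CPM (R3), against 750 (R1), 764 (R2) and 722 CPM (R3) in KO, followed by FAM86JP and SRA1. Among the nearest to CDKN2C were APAF1, encoding the apoptosome scaffold (0.12), and LMNB1, encoding lamin B1 (0.13), both lower in every KO library. CSRNP1, STK40 and TBC1D22B were nearest to CDKN1A (0.096 to 0.11), and BOLA2, GTPBP1 and RALY to MDM2 (0.019 to 0.028). SESN1 lay nearest to CCDC126, AP1M1 and CAD (0.03 to 0.047), and CDKN1B to RTEL1, TMCO4 and CPSF4 (0.067 to 0.072). CDKN1C lay nearest to KPNA2, CENPI and E2F2 (0.12 to 0.15), though at 5 to 23 expected counts it was itself under that average. The log2 CPM used a prior count of 2, which narrows the spread of a gene at such low counts.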

How the data were processed

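Each library's column of the deposited table holds RSEM expected counts, which the authors left without normalization, per the file headers. Of the values in a column, 9.42% to 10.6% had decimals. The submitters' processing notes list GRCh38, Bowtie2, RSEM and edgeR without versions, and no source used here states the annotation or whether counting used strand. Per the labels, libraries were made from polyA RNA.

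Expected counts were rounded and tested with edgeR 4.0.16 (quasi-likelihood test, TMM factors from 0.991 to 1.015, filterByExpr, Benjamini-Hochberg adjustment over all genes tested, R 4.3.3). CPM is the rounded count over the library total times its TMM factor. SE is the log2 fold change over the square root of F. Alternatives used DESeq2 1.42.0 and limma 3.58.1. The edgeR step was tested on simulated counts that varied independently between libraries around a label effect. They held no division by DAPK3 RNA level. That test therefore cannot speak to the difference between the results as labelled and those without both R2 libraries. Coordinates and exon lengths are from GENCODE release 29, in which all 9 genes were found by identifier, and promoter sequences from RefSeq.

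The genes, the gene lists, the comparison without both R2 libraries and the DAPK3 covariate were chosen with earlier results of these data known. For each list other than the members, the rule named up to 4 called genes with the largest change without both R2 libraries or, with none called, the 2 most expressed, together with neighbours of CDKN2A and CDKN1C and the 3 genes most like each member. Replicate numbers did not pair the libraries. Some genes that this rule names are not reported here.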

Additional observations from a re-analysis of the deposited data

How the results depend on the processing

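As labelled, 0 genes were called by edgeR or limma-voom in each setting tried, including each library left out (0 to 0) and the DAPK3 covariate, except that DESeq2 called 114 and leaving out both R2 libraries 4056. The replicate block called 0, and same-numbered libraries deviated in opposite directions (correlations across genes of −0.65, −0.85 and −0.70), so no library correlated best with its own number. Without both R2 libraries the count of 4056 became 1710 at an adjusted p under 0.01, 1862 with an absolute log2 fold change of at least 1 and 2702 with the replicate block, and 2543 to 3700 with 1 more library left out, lowest without control R1. The block also ended the calls of MDM2 (adjusted p = 0.098), SESN1 (0.12) and CDKN1C (0.092) there. No log2 fold change of a member changed sign in any setting. CDKN1A was called without both R2 libraries in every setting tried, and AEN in all but the one that required a log2 fold change of at least 1. Depth limits CDKN2A, CDKN2B and CDKN1C, at 0 to 37 expected counts per library.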
